A study of Homo sapiens with 6 samples.

Results

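The assembly factors of the large (60S) ribosomal subunit measured here are 58 genes taken by name from the 58051 gene rows of a count table. All 58 had a row of their own, and all 58 were among the 17561 genes that passed the filter on low counts. They act from the first nucleolar particle to the last cytoplasmic step. All are known from their role in assembly. U2OS cells, a human osteosarcoma line, received an siRNA against SURF2 (siSURF2, 3 libraries) or a scrambled siRNA (siSCR, 3 libraries). Both groups had 2 transfections at an interval of 49 h, and polyA RNA was taken at 96 h. By its title, the series concerns SURF2, MDM2 and nucleolar stress, and the contrast asks which mRNAs differ once SURF2 is lowered. A single tumour line was used, and the labels do not give the siRNA sequences.

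A large subunit begins in the nucleolus, where RNA polymerase I makes a long precursor of the ribosomal RNAs. Scaffold proteins, RNA methyltransferases and helicases fold the precursor around ribosomal proteins, and nucleases then remove the internal spacers. Large ATPases strip factors from the particle, an adaptor carries it through the nuclear pore, and cytoplasmic GTPases take off the last placeholders. Growing tumour cells make these factors at high rates. When assembly fails, ribosomal proteins that were not built in can bind MDM2, which is the nucleolar stress response of the title.

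Counts assigned to genes ran from 18151554 to 19688089 in siSURF2 and from 17123333 to 19573786 in siSCR. A member had between 175 (PPAN) and 4723 (RSL1D1) raw counts in a library. SURF2 itself was at 3.74, 3.56 and 3.20 CPM (counts per 1000000 gene counts, scaled by TMM factors) in siSURF2 replicates 1, 2 and 3, against 36.2, 35.8 and 32.3 CPM in siSCR replicates 1, 2 and 3. The mesenchymal genes VIM, SPARC and RUNX2 were detected in all 6 libraries. COL1A2, also mesenchymal, was at 0 to 3 counts, and the osteoblast genes IBSP, SP7 and BGLAP were at 0 to 7 counts. Of 10 osteosarcoma and mesenchymal markers 6 passed the filter, and their summed level was 3487 to 3830 CPM in siSURF2 and 3151 to 3204 CPM in siSCR. This sum was mostly VIM and SPARC, and single markers went both ways: SPP1 rose by 1.67 ± 0.19 on the log2 scale, SPARC by 0.47 ± 0.06 and COL1A1 by 0.43 ± 0.06, whereas ALPL fell by 2.07 ± 0.25 and VIM and RUNX2 did not pass. Of 10 markers of other cell types 6 passed the filter, CD3E was at 0 in every library, and the summed level was 14.4 to 16.5 CPM in siSURF2 and 14.5 to 15.6 CPM in siSCR. Behind these near-equal sums, the epithelial marker CDH1 fell to 0.484 CPM in siSURF2, against 3.19 CPM in siSCR, and the endothelial marker PECAM1 to 0.657 CPM in siSURF2, against 1.68 CPM in siSCR. EPCAM, also epithelial, rose to 8.74 CPM in siSURF2, against 4.41 CPM in siSCR, and CD68, VWF and MYH11 did not pass. The part of these markers in the members' levels was not tested. Mitochondrial genes held 2.73% of the counts in siSURF2 replicate 2, against 4.70% and 4.74% in siSURF2 replicates 1 and 3 and 2.91% to 3.50% in siSCR. That library stood apart from the other siSURF2 libraries, with a chi-square over degrees of freedom of 8.87 and 10.3 for its counts against theirs, and 2.87 between the other pair. Without it, 45 members were called lower. Whether replicates came from different cultures is not in the labels, so the p-values cover only library-to-library spread, possibly technical.

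Most of the assembly factors were lower in siSURF2. By edgeR's quasi-likelihood test (threshold 0.05, adjusted over every tested gene after Benjamini and Hochberg), 47 of the 58 fell, 1 rose and 10 did not pass. Over all genes tested, 26.2% fell and 25.8% rose, and among the 9128 genes whose mean level lay within the range of the members 34.4% fell. The median log2 fold change of siSURF2 over siSCR was -0.32 for the 58 members, against 0.00425 for all genes tested. The members ran from -1.22 for MAK16 to 0.20 for EFL1, and the middle part of the distribution, between the quartiles, lay between -0.45 and -0.19. With a log2 fold change of -0.5 or below, 9 members (15.5%) passed the test, against 10.7% of all genes tested. In 46 members (79.3%) every siSURF2 library lay below every siSCR library, a pattern seen in 28.6% of all genes tested. In 3 members (EFL1, NVL and URB1, 5.17%) every siSURF2 library lay above, seen in 28.6% of all genes. Of the 9128 genes in the members' level range, 859 passed the test with a log2 fold change of -0.5 or below. In 3312 of them every siSURF2 library lay below every siSCR library, and in 2925 above. The summed level of the 58 was 4250.5, 4426 and 4143 CPM in siSURF2 replicates 1, 2 and 3, against 5464, 5432 and 5141 CPM in siSCR replicates 1, 2 and 3. In siSURF2 the sum was thus 0.799 times that in siSCR, and the groups did not overlap. In bulk RNA, fewer cells of a type and less RNA per cell cannot be told apart. With library sizes set by the total of ERCC spike-ins in place of TMM factors, the members' median was -0.35, against -0.0351 for all genes. But with that scaling 3 members (MAK16, NMD3 and NOL9) passed as lower and 0 as higher. Spike-ins made up 1.27% to 1.72% of all counts in siSURF2 and 1.12% to 1.72% in siSCR, so this scaling varied within each group. It lowered the calls over all 17561 genes tested to 825 lower and 802 higher. The share of members called lower was then like that of all genes.

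**Figure D1:**
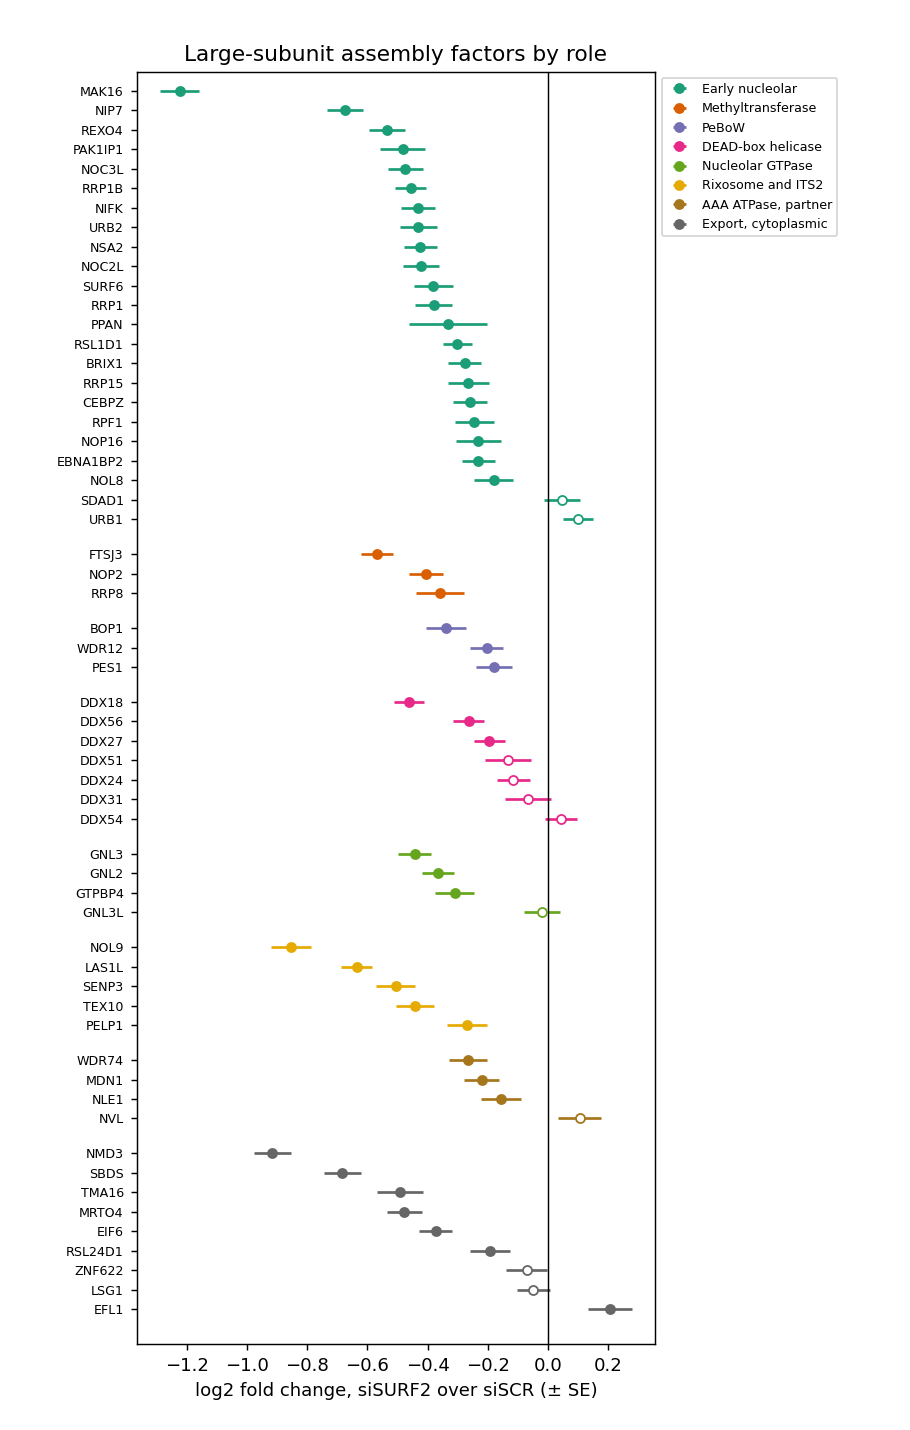
Log2 fold change of siSURF2 over siSCR for each of the 58 assembly factors, with its standard error as a bar, arranged by role. Filled points passed edgeR's test at an adjusted p of 0.05, and the 10 open points did not. MAK16 is farthest to the left at -1.22 and EFL1 farthest to the right at 0.20.

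The promoters of the members were read from RefSeq (GRCh38.p14) as 250 bases before to 50 bases after the annotated start. They are shown because the members moved together and because many ribosome assembly genes are known targets of MYC, which binds the E-box CACGTG. Windows were found for 52 members and not for BOP1, DDX18, MAK16, RRP1B, RSL1D1 and URB2. The letters CACGTG, which read the same on both strands, were present in 17 of the 52 (32.7%), against 7.43% of all 27305 windows and 9.8% of windows of genes tested. Each line gives 30 bases on the strand of the gene, with the E-box in capitals. Shown are the 5 members with CACGTG that fell furthest and then the 3 that did not pass the test.
TMA16 (chr4:163494684-163494713, plus strand): cttctcaggcgcCACGTGggattcggcccg
PAK1IP1 (chr6:10694959-10694988, plus strand): tggcggaagaggCACGTGcgctgctgaatg
MRTO4 (chr1:19251807-19251836, plus strand): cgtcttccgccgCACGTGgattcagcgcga
NOC3L (chr10:94362903-94362932, minus strand): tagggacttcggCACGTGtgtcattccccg
TEX10 (chr9:100352955-100352984, minus strand): gcgggctgcgatCACGTGagcacagcaggg
DDX31 (chr9:132669988-132670017, minus strand): cctcgcgcgtccCACGTGgggtcccgggcc
DDX54 (chr12:113185522-113185551, minus strand): ctcagcggaggtCACGTGgtcaccgcacct
SDAD1 (chr4:75991156-75991185, minus strand): tacatgctaacaCACGTGaaaaaatttaca

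Counting the first transcribed base as 0, the E-box began at position 6 in TMA16, -1 in PAK1IP1, 14 in MRTO4, 19 in NOC3L and -30 in TEX10. It began at -22 in DDX31, -61 in DDX54 and -228 in SDAD1. Members with and without the letters had like values. Of the 17 members with CACGTG 14 fell, with a median log2 fold change of -0.27, and of the 35 without it 27 fell, with a median of -0.28. A second motif, CCGGAAG on either strand, which is bound by ETS-family factors, was in 25 of the 52 windows (48.1%), against 18.2% of windows of genes tested. Medians were -0.28 with it and -0.27 without it. A match in a window is a description of letters and not of binding. MYC mRNA was at 133, 138 and 128 CPM in siSURF2 replicates 1, 2 and 3, against 163, 166 and 150.2 CPM in siSCR replicates 1, 2 and 3. It fell by 0.26 ± 0.05 on the log2 scale (SE, edgeR adjusted p = 1.2e-04), and the part of MYC in the members' levels was not tested.

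Of the 23 early nucleolar factors, which act mostly on the first nucleolar particles, 21 fell, none rose and 2 did not pass, with a median log2 fold change of -0.38. MAK16, a core protein of the early particle that in yeast sits with RPF1, RRP1 and the WDR74 homologue, changed most among the 58 members. It was at 23.4, 24.5 and 24.0 CPM in siSURF2 replicates 1, 2 and 3, against 53.9, 55.7 and 58.3 CPM in siSCR replicates 1, 2 and 3. The siSURF2 level was 57.15% lower (log2 fold change -1.22 ± 0.06, edgeR adjusted p = 4.8e-15), and this was the only member with a log2 fold change below -1. MAK16 shares 19.2% of its exon bases with TTI2 on the other strand, which itself fell by 0.51 ± 0.09, and whether the counting used strand is not known. NIP7, an RNA-binding factor of the early particle, was at 55.8, 63.4 and 59.1 CPM in siSURF2, against 98.0, 97.8 and 88.8 CPM in siSCR. It fell by 0.67 ± 0.06 (edgeR adjusted p = 1.7e-10), and all siSURF2 libraries lay under the lowest siSCR library. NIP7 shares 20.2% of its exon bases with COG8 on the other strand, which did not pass (-0.16 ± 0.12), and has 3 annotated pseudogenes. REXO4, homologous to a yeast exonuclease, was at 63.8, 62.7 and 55.6 CPM in siSURF2, against 88.2, 90.1 and 85.4 CPM in siSCR, a fall of 0.53 ± 0.06. RRP1B, which also brings protein phosphatase to the nucleolus, was at 86.6, 93.2 and 88.6 CPM in siSURF2, against 123, 125 and 120.4 CPM in siSCR, a fall of 0.46 ± 0.05. Neither gene had overlapping groups.

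Among the other early factors, PAK1IP1 and NOC3L had log2 fold changes of -0.48 ± 0.08 and -0.47 ± 0.06, followed by NIFK, which binds the proliferation antigen Ki-67 (-0.43 ± 0.06), URB2 (-0.43 ± 0.06) and NSA2 (-0.42 ± 0.05). Of the homologues of the yeast Noc proteins, which travel with the particle through the nucleus, NOC2L fell by 0.42 ± 0.06, close to NOC3L, and CEBPZ by 0.26 ± 0.06. SURF6, a nucleolar neighbour of SURF2 in the surfeit gene cluster, fell by 0.38 ± 0.06, and RRP1, the paralogue of RRP1B, also by 0.38 ± 0.06. RSL1D1 fell by 0.30 ± 0.05, RRP15 by 0.26 ± 0.07, EBNA1BP2 by 0.23 ± 0.06, NOP16 by 0.23 ± 0.07 and NOL8 by 0.18 ± 0.06. The Brix-domain proteins, which bind the precursor RNA, were near each other, with BRIX1 at -0.28 ± 0.05, RPF1 at -0.24 ± 0.06 and PPAN at -0.33 ± 0.13. PPAN had the fewest counts of the members (9.94 ± 1.09 CPM in siSURF2 and 12.56 ± 2.496 CPM in siSCR, SD, n = 3 each), its groups overlapped, and 59.8% of its exon bases are shared with other genes, mainly a read-through transcript into P2RY11. NSA2 shares 58.7% of its exon bases, mostly with FAM169A on the other strand, which fell by 0.57 ± 0.11. The pair URB1 and URB2, large proteins that in yeast act together on the earliest particle, had different values. The difference between these 2 genes was not tested. URB1 was at 143, 145 and 135 CPM in siSURF2, against 132, 131 and 131 CPM in siSCR, and did not pass (0.10 ± 0.05, edgeR adjusted p = 0.094). With upper-quartile factors it was called higher (0.15, adjusted p = 0.01), and so it was with no factors (0.13, adjusted p = 0.03). SDAD1, homologous to a yeast export factor, was at 0.05 ± 0.06 and did not pass. The call of PPAN was lost without siSURF2 replicate 1 (edgeR adjusted p = 0.078), siSURF2 replicate 3 (0.15), siSCR replicate 1 (0.21) and siSCR replicate 2 (0.098). That of NOP16 was lost without siSURF2 replicate 1 (edgeR adjusted p = 0.12) and siSCR replicate 2 (0.10), and that of NOL8 without siSURF2 replicate 1 (0.17) and siSURF2 replicate 2 (0.077).

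All 3 of the RNA methyltransferases fell. FTSJ3, a 2′-O-methyltransferase that also holds the early particle together, was at 151, 157 and 141 CPM in siSURF2 replicates 1, 2 and 3, against 229, 228 and 209 CPM in siSCR replicates 1, 2 and 3. It fell by 0.57 ± 0.05 (edgeR adjusted p = 4.7e-10), and the siSURF2 libraries all lay well below the siSCR libraries. FTSJ3 shares 16.8% of its exon bases with PSMC5 on the other strand, which fell by 0.44 ± 0.05. NOP2, a cytosine methyltransferase long used as a marker of proliferating nucleoli, was at 116, 119 and 111 CPM in siSURF2, against 155, 164 and 139.6 CPM in siSCR (-0.40 ± 0.06, edgeR adjusted p = 7.9e-07), and shares 54.4% of its exon bases with a gene on the same strand. RRP8, an adenine methyltransferase that also binds chromatin of the ribosomal RNA genes, was at 25.1, 21.6 and 20.8 CPM in siSURF2, against 28.98, 30.3 and 27.2 CPM in siSCR (-0.36 ± 0.08, edgeR adjusted p = 4.1e-04). Neither had overlapping groups. The summed level of the 3 enzymes in siSURF2 was 0.713 times that in siSCR.

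The PeBoW complex, formed by PES1, BOP1 and WDR12, is needed to process the spacers on both sides of the 5.8S RNA, and all 3 of its genes fell by small amounts. BOP1 was at 181, 194 and 167 CPM in siSURF2 replicates 1, 2 and 3, against 252, 229 and 206 CPM in siSCR replicates 1, 2 and 3 (-0.34 ± 0.07, edgeR adjusted p = 2.0e-04). WDR12 was at 63.2, 62.6 and 60.1 CPM in siSURF2, against 72.7, 71.4 and 70.1 CPM in siSCR (-0.20 ± 0.06, edgeR adjusted p = 0.0027). PES1 was at 159, 186 and 160.2 CPM in siSURF2, against 199, 198 and 176 CPM in siSCR (-0.18 ± 0.06, edgeR adjusted p = 0.015). The PES1 groups overlapped, since siSURF2 replicate 2 lay above siSCR replicate 3. Its call was lost without siSURF2 replicate 1 (edgeR adjusted p = 0.14), siSURF2 replicate 3 (0.076) or siSCR replicate 2 (0.088).

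Helicases of the DEAD-box family, which unwind snoRNAs and RNA helices during assembly, were the group with the smallest share of called members. Of 7 genes 3 fell, none rose and 4 did not pass, and the median log2 fold change was -0.13. DDX18, whose yeast homologue Has1 acts on both subunits, was at 144, 145 and 133 CPM in siSURF2 replicates 1, 2 and 3, against 190.1, 199 and 193 CPM in siSCR replicates 1, 2 and 3. It fell by 0.46 ± 0.05 (edgeR adjusted p = 1.0e-08), with no overlap between the groups. DDX56 was at 107, 112 and 111 CPM in siSURF2, against 132, 138 and 125 CPM in siSCR (-0.26 ± 0.05, edgeR adjusted p = 1.1e-04). DDX27 was at 122, 124 and 115 CPM in siSURF2, against 141, 135 and 137 CPM in siSCR (-0.19 ± 0.05, edgeR adjusted p = 0.0019). In both genes the groups did not overlap. The others did not pass: DDX51 was at -0.13 ± 0.08, DDX24 at -0.12 ± 0.05, DDX31 at -0.07 ± 0.08 and DDX54 at 0.04 ± 0.05 on the log2 scale. DDX51 was called lower without siSCR replicate 3 (-0.24, edgeR adjusted p = 0.0049), the siSCR library in which it was lowest. The sign for DDX54 turned without that library (-0.01).

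**Figure D2:**
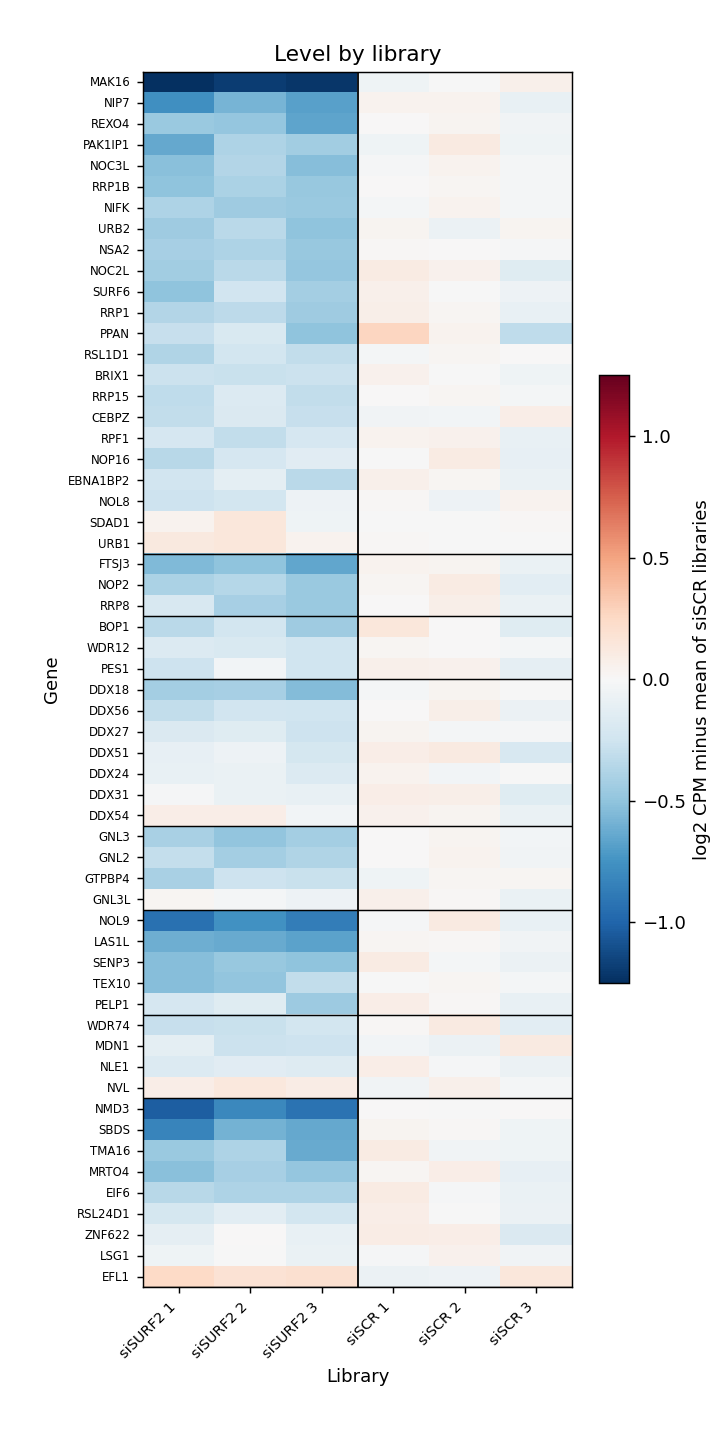
Level of each of the 58 assembly factors in each library, as log2 CPM minus the mean over the siSCR libraries, with siSURF2 libraries on the left and horizontal lines between the role groups. Blue marks lower and red higher levels. MAK16, NIP7, NOL9, LAS1L, NMD3 and SBDS are among the darkest blue in the siSURF2 libraries, and EFL1 is light red in all 3 of them.

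Of the 4 nucleolar GTPases, which act as timers of assembly steps, 3 fell. GNL3 (nucleostemin), which is abundant in stem and tumour cells and also linked to MDM2, was at 63.1, 59.8 and 62.3 CPM in siSURF2 replicates 1, 2 and 3, against 83.9, 85.6 and 82.1 CPM in siSCR replicates 1, 2 and 3. It fell by 0.44 ± 0.05 (edgeR adjusted p = 9.1e-08). GNL2 was at 100.4, 92.05 and 95.6 CPM in siSURF2, against 124, 127 and 120.0 CPM in siSCR (-0.37 ± 0.05, edgeR adjusted p = 1.1e-06). In both genes the highest siSURF2 library stood below the lowest siSCR library. GTPBP4 was at 33.2, 36.8 and 36.1 CPM in siSURF2, against 42.3, 44.5 and 44.7 CPM in siSCR (-0.31 ± 0.06, edgeR adjusted p = 2.0e-04). GNL3L, the paralogue of GNL3, was at 57.7, 56.0 and 54.5 CPM in siSURF2, against 59.6, 57.5 and 53.6 CPM in siSCR, and did not pass (-0.02 ± 0.06, edgeR adjusted p = 0.80). Per kilobase of exon, the log2 ratio of GNL3 to GNL3L was -0.23, -0.26 and -0.17 in siSURF2 and 0.14, 0.22 and 0.26 in siSCR. The ratio differed by -0.42 between the groups without overlap, with a two-sided exact permutation p of 0.10, the smallest that 3 against 3 libraries allow. For the other pair of paralogues, the log2 ratio of RRP1 to RRP1B averaged -0.32 ± 0.06 in siSURF2 and -0.40 ± 0.07 in siSCR (SD, n = 3 each, exact permutation p = 0.30).

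All 5 genes measured in the group that removes the second internal spacer were called lower, with the largest median fall among the 8 role groups (-0.51). LAS1L, the endonuclease that cuts the spacer, and NOL9, the kinase bound to it, prepare the cut ends for trimming. Together with PELP1, TEX10 and the SUMO protease SENP3, these enzymes belong to the rixosome. NOL9 (chr1:6521347-6554535) was at 30.4, 34.2 and 31.8 CPM in siSURF2 replicates 1, 2 and 3, against 57.3, 62.5 and 54.5 CPM in siSCR replicates 1, 2 and 3. The siSURF2 level was 44.7% lower (-0.85 ± 0.07, edgeR adjusted p = 1.6e-11). LAS1L (chrX:65512582-65534775) was at 92.8, 91.5 and 89.2 CPM in siSURF2, against 144, 143 and 138 CPM in siSCR, which is 35.6% lower (-0.64 ± 0.05, edgeR adjusted p = 2.2e-11). In both enzymes every siSURF2 library lay far below every siSCR library. SENP3 was at 34.9, 36.4 and 35.6 CPM in siSURF2, against 54.2, 49.9 and 48.0 CPM in siSCR (-0.51 ± 0.06, edgeR adjusted p = 1.4e-07). TEX10 was at 45.9, 47.3 and 53.7 CPM in siSURF2, against 66.5, 67.6 and 65.5 CPM in siSCR (-0.44 ± 0.06, edgeR adjusted p = 8.5e-07). SENP3 shares 41.2% of its exon bases with a read-through gene into EIF4A1, itself at 0.663 CPM in siSURF2 and 0.957 CPM in siSCR. PELP1 fell least of the 5, by 0.27 ± 0.07 (edgeR adjusted p = 0.0018). The summed level of the 5 genes was 309, 319 and 299 CPM in siSURF2 replicates 1, 2 and 3, against 451, 445 and 419 CPM in siSCR replicates 1, 2 and 3, or 0.704 times as much.

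The AAA ATPases pull other factors off the nuclear particle. Of the 4 ATPases and partners 3 fell and 1 did not pass, with a median log2 fold change of -0.19. MDN1, a giant ATPase that removes the PeBoW complex and other factors, was at 98.6, 89.4 and 89.9 CPM in siSURF2 replicates 1, 2 and 3, against 105, 102 and 116 CPM in siSCR replicates 1, 2 and 3 (-0.22 ± 0.06, edgeR adjusted p = 0.0020). Its adaptor NLE1 was at 33.7, 34.4 and 33.8 CPM in siSURF2, against 40.1, 37.6 and 36.1 CPM in siSCR (-0.16 ± 0.07, edgeR adjusted p = 0.048). NLE1 was the weakest lower call among the members, and it did not pass in 13 of the 17 alternative settings, among them those without siSURF2 replicate 1, 2 or 3 or siSCR replicate 1 or 2, with adjusted p between 0.07 and 0.16 for these libraries, and the fit with the replicate number as a block (adjusted p = 0.055). WDR74 was at 51.9, 52.2 and 53.8 CPM in siSURF2, against 63.9, 68.5 and 57.7 CPM in siSCR (-0.27 ± 0.06, edgeR adjusted p = 7.4e-04). NVL, the ATPase that removes WDR74, was at 26.2, 27.2 and 26.4 CPM in siSURF2, against 24.0, 25.9 and 24.3 CPM in siSCR, and did not pass (0.10 ± 0.07, edgeR adjusted p = 0.24). The difference between WDR74 and NVL was not tested.

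**Figure D3:**
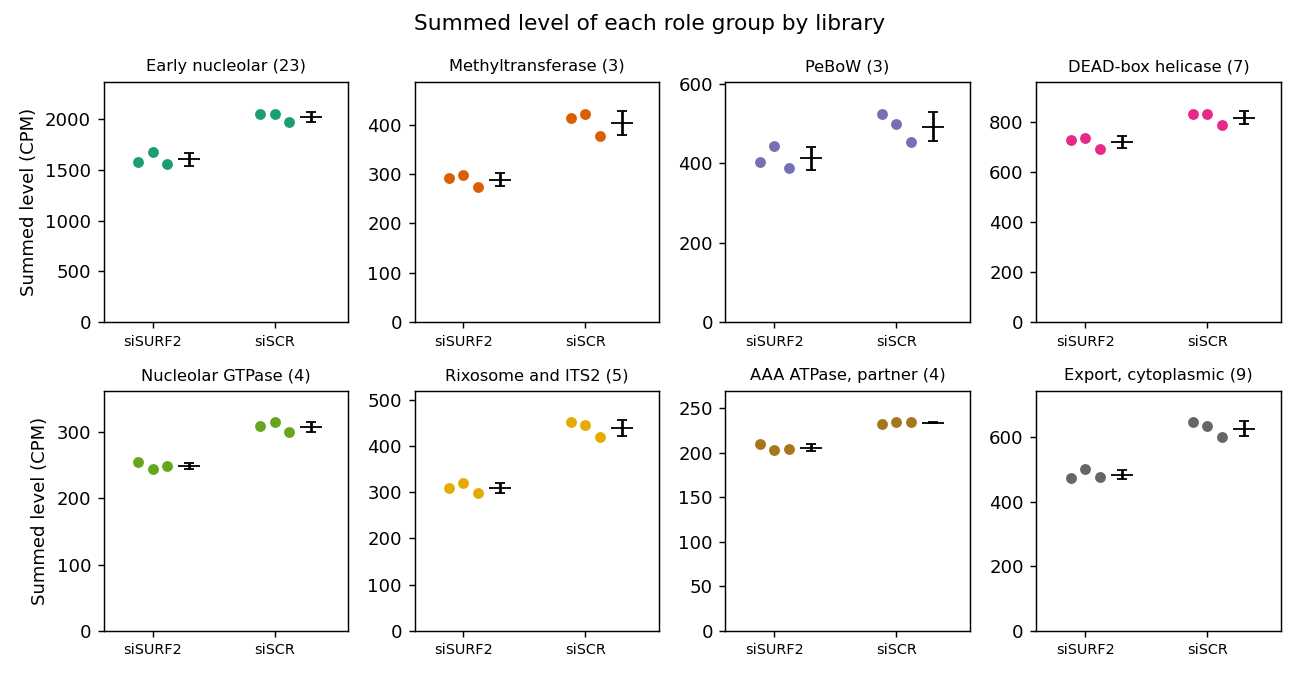
Summed level in CPM of each role group in each library, with siSURF2 on the left and siSCR on the right of each panel, and mean ± SD beside the points. All axes start at 0, and the number of genes is in brackets. In each of the 8 panels the siSURF2 points lie below the siSCR points, from 0.704 times the siSCR mean for the rixosome set to 0.880 times for the ATPases and the helicases.

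Of the 9 factors of export and cytoplasmic maturation, 6 fell, 1 rose and 2 did not pass, and the group held both the second strongest fall and the only rise. NMD3 (chr3:161104696-161253532), the adaptor that hands the particle to the exportin XPO1, was at 40.3, 47.2 and 43.5 CPM in siSURF2 replicates 1, 2 and 3, against 82.4, 82.2 and 82.5 CPM in siSCR replicates 1, 2 and 3. The siSURF2 level was 47.002% lower (-0.92 ± 0.06, edgeR adjusted p = 4.4e-13), and the siSCR libraries were nearly identical. LSG1, the GTPase that takes NMD3 off in the cytoplasm, was at 77.3, 80.1 and 75.9 CPM in siSURF2, against 79.9, 83.4 and 78.2 CPM in siSCR, and did not pass (-0.05 ± 0.05, edgeR adjusted p = 0.47). These 2 partners therefore had very different values, although the difference between them was not tested. Among the placeholders that keep sites of ribosomal proteins free, MRTO4, which holds the site of the stalk protein RPLP0, was at 55.4, 59.6 and 56.8 CPM in siSURF2, against 80.8, 84.4 and 74.2 CPM in siSCR (-0.48 ± 0.06, edgeR adjusted p = 1.0e-07). TMA16 fell by 0.49 ± 0.08 and RSL24D1, the placeholder of RPL24, by 0.19 ± 0.07. RSL24D1 has 9 annotated pseudogenes, which may share its reads, and its call was lost without siSURF2 replicate 1 (edgeR adjusted p = 0.084), siSURF2 replicate 3 (0.062) or siSCR replicate 1 (0.06). ZNF622, homologous to a yeast cytoplasmic release factor, did not pass (-0.07 ± 0.07), but was called lower without siSCR replicate 3 (-0.17, edgeR adjusted p = 0.021), in which it was at 49.2 CPM, against 59.8 and 59.4 CPM in siSCR replicates 1 and 2.

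The last step before a large subunit can join a small one is the removal of EIF6 by SBDS and the GTPase EFL1, and its 3 genes did not move together. SBDS (chr7:66987677-66995601), the gene mutated in most cases of Shwachman-Diamond syndrome, was at 55.0, 64.7 and 62.7 CPM in siSURF2 replicates 1, 2 and 3, against 100.3, 98.4 and 94.4 CPM in siSCR replicates 1, 2 and 3. It fell by 0.68 ± 0.06 (edgeR adjusted p = 1.5e-10), and the groups did not overlap. EIF6, which blocks the joining face, was at 100.5, 97.6 and 97.4 CPM in siSURF2, against 137, 126 and 120.5 CPM in siSCR (-0.37 ± 0.05, edgeR adjusted p = 1.3e-06). EFL1 (chr15:82130230-82262763) was at 33.2, 31.5 and 32.0 CPM in siSURF2, against 26.4, 26.7 and 30.6 CPM in siSCR, and was the only member that rose (0.20 ± 0.07, edgeR adjusted p = 0.020). The EFL1 groups were separated by less than 1 CPM, and the call was lost with DESeq2 (adjusted p = 0.051), without siSURF2 replicate 1 (edgeR adjusted p = 0.058) and without siSCR replicate 1 (0.11) or 2 (0.081). SBDS and EFL1 have 1 and 2 annotated pseudogenes, with reads that the counting may have shared. Per kilobase of exon, EIF6 had the highest level of the 58 members in both groups, at 60.4 ± 1.06 CPM per kb in siSURF2 and 78.3 ± 5.08 CPM per kb in siSCR (SD, n = 3 each). RRP8 had the lowest, at 3.25 ± 0.327 CPM per kb in siSURF2 and 4.16 ± 0.22976 CPM per kb in siSCR.

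Other genes of ribosome assembly, taken from lists of known factors, were measured in the same way. These lists, like the members, were chosen with earlier results of these data known. Of 31 further large-subunit genes 20 fell, 4 rose and 7 did not pass, with a median log2 fold change of -0.27. PA2G4, a factor at the exit tunnel of the exported particle, averaged 223 ± 9.44 CPM in siSURF2 and 362 ± 10.5 CPM in siSCR (-0.70 ± 0.05), and NPM1, a nucleolar chaperone, 1014 ± 38.7 CPM in siSURF2 and 1391 ± 20.6 CPM in siSCR (-0.46 ± 0.05). NOP53 and C7orf50 rose by 0.26 ± 0.05 and 0.19 ± 0.05, and the call of C7orf50 was lost without siSURF2 replicate 2 (edgeR adjusted p = 0.057). Of 57 small-subunit factors 44 fell, 2 rose and 11 did not pass, with a median of -0.25. Among them TSR1 and WDR43 fell by 0.77 ± 0.05 and 0.81 ± 0.05, and the helicases DHX37 and DDX49 rose by 0.28 ± 0.06 and 0.25 ± 0.07. The call of DDX49 was also lost without siSURF2 replicate 2 (edgeR adjusted p = 0.066). The shares that fell were thus 81.0% of the 58 members, 64.5% of the further large-subunit genes and 77.2% of the small-subunit factors, and no test set these lists against each other. The genes of the large-subunit ribosomal proteins, which the factors assemble, had other values. Of 47 genes 3 fell (6.38%), 12 rose (25.5%) and 32 did not pass, with a median of 0.04. Over all genes tested 26.2% fell and 25.8% rose, so the share of ribosomal protein genes that rose was like that of all genes. Their summed level was 37313, 37878 and 37271 CPM in siSURF2 replicates 1, 2 and 3, against 37605, 36021 and 36582 CPM in siSCR replicates 1, 2 and 3, so that the groups overlapped. Counts of ribosomal protein genes are uncertain because of their many processed pseudogenes.

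**Figure D4:**
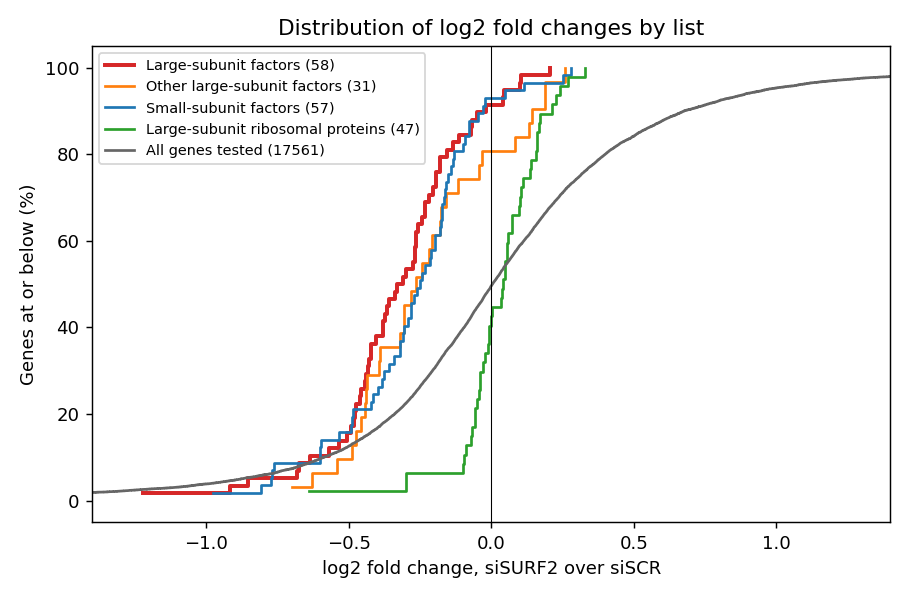
Share of genes (%) at or below each log2 fold change of siSURF2 over siSCR, for the 58 assembly factors, 31 further large-subunit genes, 57 small-subunit factors, 47 large-subunit ribosomal protein genes and all 17561 genes tested. The x axis is limited to the part that holds the members. Around their middle, the curves of the 3 lists of assembly factors lie to the left of that of all genes, with medians of -0.32, -0.27 and -0.25, while the ribosomal proteins are centred at 0.04.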

How the data were processed

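Per the labels' protocols, polyA libraries were built from 2 µg of Trizol-extracted RNA. Per the submitters' processing notes, the build was GRCh38 and the tools include fastp 0.23.1 and STAR 2.5.2b. The deposited values are raw counts per gene, made by the authors with a counter, annotation and strand option that the labels do not name. In all, 13 members share 15% or more of their exon bases with other genes. Besides those named above, these are CEBPZ (23.2%), WDR74 (22.3%), EBNA1BP2 (20.5%), NOP16 (20.0%), GTPBP4 (19.1%) and EIF6 (17.4%). On the strand opposite NOP16, ARL10 fell by 0.61 ± 0.08 on the log2 scale and HIGD2A rose by 0.17 ± 0.07. On the strand opposite CEBPZ, NDUFAF7 rose by 0.29 ± 0.09 and CEBPZOS did not pass (0.15 ± 0.07). Named pseudogenes exist for 16 members, among them NIFK (8), DDX18 (5) and SDAD1 (4). The counts of all these members may hold shared reads.

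Columns were tied to samples through their names. The 92 spike-in rows stayed out of library sizes and tests. Genes were filtered with filterByExpr (minimum count 10, minimum total 15) and tested with edgeR 4.0.16 in R 4.3.3 (TMM factors, quasi-likelihood F-test, robust prior, 1 term for the group), with Benjamini-Hochberg adjustment over 17561 genes. CPM are TMM-scaled, and levels per kilobase use merged exons of GENCODE release 29 on GRCh38, as do gene coordinates and overlaps. SE is the size of the unshrunk log2 fold change over the root of F. The fit was also run on simulated counts with few changed genes. That setting is unlike these data, in which 52% of genes were called, so the run does not bear on the calls made here.

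The members, role groups and comparison lists were chosen with earlier results of these data known. Values in every library are given for up to 4 members per role group with the smallest adjusted p in the main direction and up to 2 in the other. Members given beyond that rule were chosen after their values were seen. Alternatives were other scaling, filters, DESeq2 1.42.0, limma-voom (limma 3.58.1), a block for the replicate number, a non-robust prior, leaving out each library, and thinning. Same-numbered libraries did not deviate together (correlations of 0.0035, -0.092 and -0.039), so the numbers were not taken as pairs.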

Additional observations from a re-analysis of the deposited data

How the results depend on the processing

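In all 16 alternatives other than ERCC scaling, 41 of the 47 lower members were called lower, the exceptions being NLE1, NOL8, NOP16, PES1, PPAN and RSL24D1. Leaving out 1 library at a time gave 41 to 49 lower and 0 to 1 higher members, with a median log2 fold change between -0.3686 and -0.2906. Over the same refits the median lay between -0.0038 and 0.0211 for all genes, between -0.3060 and -0.2328 for the further large-subunit genes and between -0.2852 and -0.2120 for the small-subunit factors, and higher calls in those lists numbered 1 to 4 and 1 to 3.

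With ERCC scaling, 3 of 58 members were called lower and 0 higher, with 825 lower and 802 higher among all 17561 genes tested. The shares called lower were thus alike. This scaling changed the other lists too. It left 1 lower and 0 higher among further large-subunit genes, 4 lower and 0 higher among small-subunit factors, and 0 in either direction among ribosomal proteins. Medians were then -0.3545 for the members and -0.0351 for all genes. They were -0.3048, -0.2888 and 0.0024 for those 3 lists in that order, and -0.0080 was the value for SDAD1. Upper-quartile factors gave 2 higher members and a members' median of -0.2759, with medians of 0.05 for all genes, -0.2195 for further large-subunit genes, -0.2050 for small-subunit factors and 0.0854 for ribosomal proteins, of which 19 were called higher. No factors gave 2 higher members and an all-gene median of 0.0300, DESeq2 gave 0 higher members, and no filter an all-gene median of -0.0129. The causes were not tested.

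The sign turned for 3 members near 0, none of them called. GNL3L was at 0.0263 with upper-quartile factors, 0.0062 with no factors, and between -0.0704 and 0.0040 when a library was left out. SDAD1 was between -0.0046 and 0.0961, and DDX54 between -0.0092 and 0.0844, when a library was left out. With the replicate block, 46 members were called lower, NLE1 being the call lost (adjusted p = 0.055), and the replicate numbers give no pairing that the design states.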
